A study of Mus musculus with 6 samples.

Results

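The 4 miRNAs described here, miR-192-5p, miR-194-5p, miR-802-5p and miR-148a-3p, are abundant or enriched in liver epithelial cells and were counted in RNA from isolated liver immune cells. They were chosen by name, as hepatocyte miRNAs apart from miR-122, with earlier results of these data known. The deposited table held 1960 mature mouse miRNAs, of which 806 had a count. All 4 were among the 297 miRNAs that passed the filter on low counts and were tested. The mice were wildtype C57BL/6J females aged 10 weeks, in 3 groups of 2 libraries each, labelled biological replicates. Mice of the Vehicle group were free of disease and got only the carrier, DMSO in corn oil. ConA+Vehicle mice got 12.5 mg/kg of concanavalin A (ConA) by retro-orbital injection; this jack bean lectin stimulates T cells and is a standard way to induce hepatitis. ConA+D8THC mice had the same ConA dose plus the cannabinoid delta-8-tetrahydrocannabinol (D8THC), given intraperitoneally (20 mg/kg, a volume of 100 µL) 15 to 18 h ahead of ConA and again 30 min later. How many mice went into a library, the hour of collection and the cell yield are not stated in the labels, so the spread between the 2 libraries of a group may be technical in part.

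A mature miRNA guides an Argonaute protein to messenger RNAs, mainly through its seed, bases 2 to 8 counted from the 5′ end. miR-122 dominates the miRNA content of hepatocytes, and the 4 miRNAs studied here accompany it at lower levels. miR-192 and miR-194 are expressed in liver, gut and kidney epithelium from shared primary transcripts controlled by hepatocyte nuclear factors. miR-802 is a liver and pancreas miRNA linked to glucose metabolism. miR-148a is abundant in liver, where it has been tied to lipid metabolism and hepatocyte differentiation, and it is also made by lymphocytes and other cells.

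The mature sequences (RefSeq, GRCm38.p6; all 4 names were matched) are printed 5′ to 3′ with the seed in capitals, beside the miRNAs that carry the same seed, since the values of both are compared further on.
miR-192-5p: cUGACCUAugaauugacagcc
miR-215-5p: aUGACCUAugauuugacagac
miR-194-5p: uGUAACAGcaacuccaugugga
miR-802-5p: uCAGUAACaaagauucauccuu
miR-148a-3p: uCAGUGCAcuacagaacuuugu
miR-148b-3p: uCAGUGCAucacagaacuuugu
miR-152-3p: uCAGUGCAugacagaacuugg
The seeds of the 4 hepatocyte miRNAs differed from each other. With positions counted from 1 at the 5′ end, miR-215-5p differed from miR-192-5p at C1A, A12U and C20A. miR-148b-3p differed from miR-148a-3p at C9U and U10C, and miR-152-3p at C9U, U10G and U20G, the latter also being 1 base shorter. No other mature miRNA in the RefSeq table shared the seed of miR-194-5p or miR-802-5p.

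In build mm10 (GRCm38), the hairpin of miR-192 lies on chromosome 19 at 6264844 to 6264932, and 115 bases upstream of it lies one of the hairpins of miR-194, at 6264643 to 6264728; GENCODE M21 places no other gene over either. The other miR-194 hairpin lies on chromosome 1 at 185313319 to 185313385, 195 bases upstream of that of miR-215 (185313581 to 185313692), antisense to an intron of Iars2, a mitochondrial isoleucyl-tRNA synthetase gene. On its own strand it lies in an intron of the gene 2010103J01Rik, and the miR-215 hairpin overlaps an exon of that gene. Both miR-194 hairpins give the same 5p sequence, so its counts cannot be assigned to a locus, but their 3p arms differ. The 3p arm of the chromosome 19 hairpin had 24 counts over the 6 libraries and that of the chromosome 1 hairpin 1, so 96.0% of the 25 came from chromosome 19 (exact 95% binomial interval 79.6% to 99.9%). The miR-802 hairpin (chromosome 16, 93369720 to 93369816) and the miR-148a hairpin (chromosome 6, 51269812 to 51269910, minus strand) overlap no other gene in GENCODE M21, while those of miR-148b and miR-152 lie in introns of Copz1 and Copz2.

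Library totals ran from 322764 to 1172389 counts. The defining miRNA of blood cells, miR-142a-3p, was present in every library, at 20449 to 81692 CPM (counts scaled to a common library size), and so was the lymphocyte miRNA miR-150-5p, at 4037 to 8532 CPM. The endothelial pair miR-126a took 12.8% to 34.2% of the counts, and the hepatocyte list, miR-122 included, 5.18% to 19.8%. In such bulk RNA, fewer cells of a type and less RNA per cell cannot be told apart.

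Together the 4 hepatocyte miRNAs took 0.944% and 1.40% of all counts in the Vehicle libraries, 2.58% and 3.09% in those of ConA+Vehicle, and 0.822% and 1.34% in those of ConA+D8THC (replicate 1 before replicate 2 here and throughout). The ConA+Vehicle libraries held the larger share and did not overlap with either other group, and the Vehicle and ConA+D8THC libraries overlapped. Group means were 1.17% ± 0.322 (SD, n = 2), 2.83% ± 0.362 and 1.08% ± 0.365. A comparison of 2 with 2 libraries cannot go below an exact two-sided permutation p of 0.33, so the shares are given without a test. Within the sum, miR-148a-3p gave 46.8% to 60.3%, miR-192-5p 28.6% to 34.9%, miR-194-5p 10.4% to 19.3% and miR-802-5p 0.453% to 1.34%. By count, miR-148a-3p ranked between the 16th and the 35th most abundant miRNA of a library, miR-192-5p between the 18th and the 46th, miR-194-5p between the 34th and the 63rd, and miR-802-5p between the 97th and the 196th.

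miR-192-5p stood at 3029 and 4252 CPM in Vehicle, 8527 and 11503 in ConA+Vehicle, and 2391 and 3758 in ConA+D8THC. The ConA+Vehicle libraries were the high ones, and those of the other groups overlapped. miR-194-5p stood at 1810 and 2767 CPM in Vehicle, 4162 and 4315 in ConA+Vehicle, and 1081 and 1372 in ConA+D8THC. Its 3 groups did not overlap, with ConA+D8THC lowest and ConA+Vehicle highest.

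miR-802-5p, the rarest of the 4, stood at 119 and 174 CPM in Vehicle, 329 and 360 in ConA+Vehicle, and 35.1 and 89.5 in ConA+D8THC. These values rest on 86 and 199, 132 and 109, and 34 and 63 counts. Its groups also formed the order ConA+D8THC, Vehicle, ConA+Vehicle without overlap, and the ConA+D8THC replicates lay 2.56-fold apart, the widest gap between replicates of any of the 4. miR-148a-3p stood at 4852 and 7176 CPM in Vehicle, 11446 and 16767 in ConA+Vehicle, and 4238 and 7917 in ConA+D8THC. As with miR-192-5p, only the ConA+Vehicle libraries stood apart from the other groups.

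**Figure D1:**
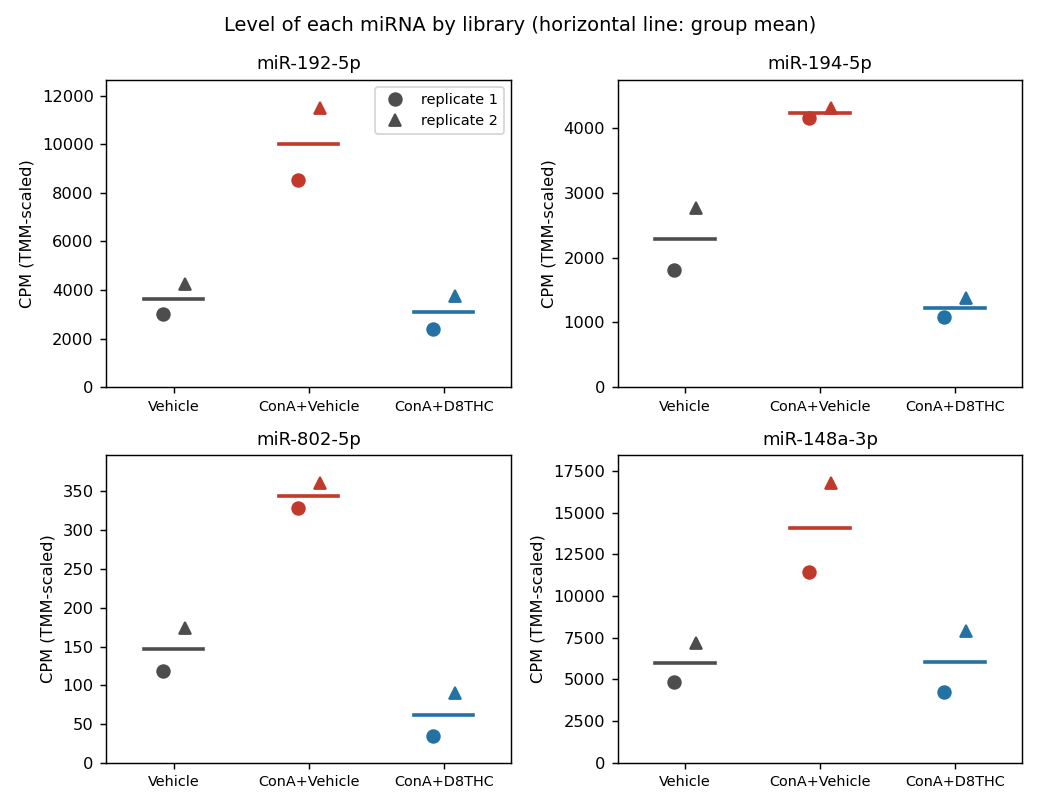
Level of miR-192-5p, miR-194-5p, miR-802-5p and miR-148a-3p in CPM (vertical axes, linear from 0) in each of the 6 libraries (circles replicate 1, triangles replicate 2, lines group means of 2). For each miRNA both ConA+Vehicle libraries lie above the other 4, and ConA+D8THC lies below Vehicle without overlap for miR-194-5p and miR-802-5p.

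The effect of ConA hepatitis was read from ConA+Vehicle against Vehicle. All 4 hepatocyte miRNAs rose, by 2.75-fold for miR-192-5p (log2 1.46 ± 0.28, standard error), 1.85-fold for miR-194-5p, 2.34-fold for miR-802-5p and 2.34-fold for miR-148a-3p. Their adjusted p-values were 0.00265, 0.0173, 0.0354 and 0.0210 (edgeR's quasi-likelihood test, Benjamini-Hochberg over the 297 miRNAs). Of all tested miRNAs, 19.9% were called higher in this comparison and 36.7% in either direction. The median log2 fold change was 1.23 over the 4 and 0.10 over all 297. For each of the 4, both ConA+Vehicle libraries lay above both Vehicle libraries, as for 38% of all tested miRNAs.

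miR-192-5p was called in each of the 13 alternative analyses, with log2 values of 1.23 to 1.73. The other 3 were not called without Vehicle replicate 1 or without ConA+Vehicle replicate 2, and miR-194-5p and miR-802-5p also not without ConA+Vehicle replicate 1 or with miR-126a left out of the counts. miR-194-5p was also not called with no filter. In all these cases log2 values stayed between 0.62 and 1.29, and adjusted p-values ran from 0.0576 to 0.131. miR-122-5p, with group means of 102430 ± 36182 CPM for Vehicle and 157640 ± 28431 for ConA+Vehicle, was not called (log2 0.62 ± 0.29, adjusted p = 0.124, edgeR). It was called higher with a replicate block (0.00431) and without Vehicle replicate 2 (log2 1.04, 0.0109), and ranged from log2 0.30 to 1.04 with 1 library left out. Its passenger arm miR-122-3p, the remaining member of the hepatocyte list, went the other way, at 157 and 189 CPM in Vehicle, 84.7 and 66.1 in ConA+Vehicle, and 27.8 and 28.4 in ConA+D8THC. It was called lower with ConA (log2 -1.19 ± 0.33, adjusted p = 0.0167), not called without ConA+Vehicle replicate 1 (0.0603) or 2 (0.116), and 6.14-fold lower in ConA+D8THC than in Vehicle (adjusted p = 0.000439). Over the same libraries the endothelial share of counts was 33.4% in Vehicle and 13.0% in ConA+Vehicle, the share of the miR-142a arms 4.92% and 9.66%, and that of 4 myeloid miRNAs 0.356% and 2.84%. Of those 4, both arms of miR-223 were called higher and both arms of miR-511 lower (miR-223-3p log2 3.02, miR-511-3p log2 -3.10), with a median of 0.03. The Vehicle libraries lay far apart in the share of the miR-142a arms, at 7.31% and 2.53%. miR-142a-3p was not called (log2 0.83, adjusted p = 0.222, edgeR), and miR-142a-5p was called higher (log2 1.31, adjusted p = 0.0188). The part of these lists in the rise of the 4 hepatocyte miRNAs was not tested beyond leaving miR-126a out, which lowered the log2 value of miR-192-5p to 1.30.

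The effect of D8THC under ConA was read from ConA+D8THC against ConA+Vehicle. miR-802-5p fell the most of the 4, by 5.61-fold (log2 -2.49 ± 0.43, adjusted p = 0.00942, edgeR). miR-194-5p fell 3.46-fold (adjusted p = 0.00399) and miR-192-5p 3.26-fold (adjusted p = 0.00863). miR-148a-3p, with means of 14107 ± 3763 CPM under ConA alone and 6077 ± 2602 with D8THC, was not called (log2 -1.21 ± 0.34, adjusted p = 0.0876). So 3 of 4 were called lower, beside 3.7% of all tested miRNAs, and for each of the 4 both ConA+D8THC libraries lay below both ConA+Vehicle libraries, as for 25.3% of all. The median log2 fold change was -1.75 over the 4 and -0.04 over all 297. The fall was not limited to the 4. miR-122-5p was also called lower, by 3.22-fold (log2 -1.685 ± 0.30, adjusted p = 0.00999, edgeR). Its log2 value was -1.858 to -1.466 with 1 library left out. The passenger arm miR-122-3p was lower but not called (log2 -1.43 ± 0.36, adjusted p = 0.0533).

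The calls of miR-194-5p and miR-802-5p were kept in all 13 alternatives. That of miR-192-5p was lost when ConA+Vehicle replicate 2 was left out (log2 -1.47, adjusted p = 0.0585), and miR-148a-3p was called lower by DESeq2 (0.0381), with no filter (0.00805), with the replicate block (7.65e-07) and without ConA+D8THC replicate 2 (0.000247). Without that last library miR-802-5p was at log2 -3.07, and without ConA+D8THC replicate 1 at -1.94. Of 4 pancreas miRNAs 3 were tested, at far lower levels, and all 3 were also called lower (adjusted p = 0.00538 to 0.0245). The acinar miRNA miR-216a-5p had 12 and 7 counts in ConA+Vehicle and 0 in both ConA+D8THC libraries, miR-216b-5p had no count in any library, and the list took 0.00558% to 0.0102% of counts in ConA+Vehicle and 0.000434% to 0.000767% in ConA+D8THC. The endothelial share of counts was 13.0% in ConA+Vehicle and 23.7% in ConA+D8THC. With both arms of miR-126a left out, miR-192-5p (log2 -1.65), miR-194-5p (-1.74) and miR-802-5p (-2.43) were still called lower (adjusted p = 0.0158, 0.00620 and 0.0158). The 4 erythroid miRNAs took 0.133% and 0.0498% of counts, and all 4 had negative log2 values (median -1.40) with an unadjusted p under 0.05, although edgeR called 0 of them and DESeq2 1. The part of the pancreas and erythroid miRNAs in the fall of the hepatocyte miRNAs was not tested.

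ConA+D8THC was also compared with Vehicle, which sets mice given both agents beside mice with no disease. Here the 4 divided. miR-194-5p was 1.87-fold lower than in Vehicle (log2 -0.90 ± 0.25, adjusted p = 0.0199, edgeR) and miR-802-5p 2.40-fold lower (log2 -1.26 ± 0.42, adjusted p = 0.0415). miR-192-5p (log2 -0.24 ± 0.28, adjusted p = 0.505) and miR-148a-3p (log2 0.01 ± 0.34, adjusted p = 0.974) were not called, and the libraries of the groups overlapped for both. Of all tested miRNAs 14.1% were called lower in this comparison, 32.7% in either direction, and 37% were lower without overlap. Beside them stood miR-122-5p, 2.09-fold below Vehicle (adjusted p = 0.0207; 0.0961 without Vehicle replicate 2 and 0.0829 without ConA+D8THC replicate 1).

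Neither the call of miR-194-5p nor that of miR-802-5p was kept without Vehicle replicate 2 or without ConA+D8THC replicate 1. Without the former, miR-194-5p was at log2 -0.56 (adjusted p = 0.113) and miR-802-5p at -0.95 (0.157), and without the latter at -0.74 (0.0743) and -0.72 (0.215). The call of miR-802-5p also ended without ConA+Vehicle replicate 1 (0.0596) or 2 (0.0612), whose libraries enter this comparison only through the shared estimate of the spread, and with library totals in place of TMM (0.0612). Since each pair of these comparisons shares a group, the values are set side by side and not correlated.

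**Figure D2:**
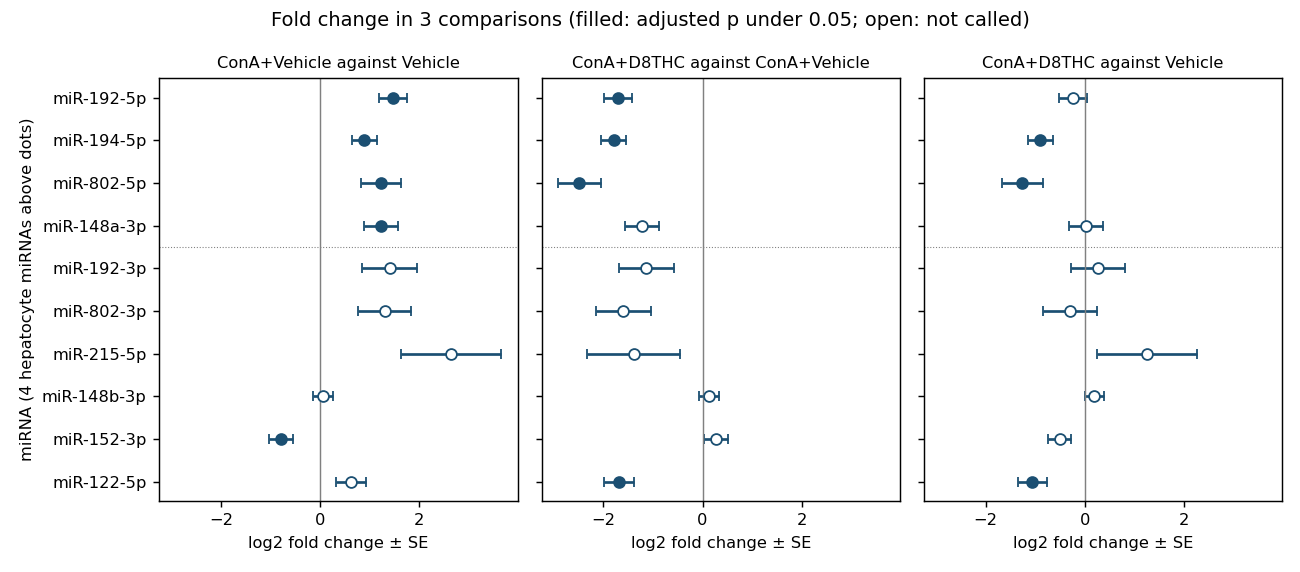
Log2 fold change with its standard error (horizontal axes) of the 4 hepatocyte miRNAs, of passenger arms and seed relatives, and of miR-122-5p, in the 3 comparisons. Filled points had an adjusted p under 0.05 in edgeR. The 4 are all filled and right of 0 with ConA, 3 are filled and left of 0 with D8THC in ConA hepatitis, and 2 are filled against Vehicle.

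The ratio of 2 miRNAs within a library needs no library scaling, although it is a ratio of counts and not of molecules. Per 1000 counts of miR-122-5p there were 39.4 and 33.2 counts of miR-192-5p in Vehicle, 62.0 and 64.7 in ConA+Vehicle, and 58.3 and 65.9 in ConA+D8THC. Both ConA groups thus lay above Vehicle and overlapped each other. The ratio of miR-194-5p was 23.6 and 21.6 in Vehicle, 30.3 and 24.3 in ConA+Vehicle, and 26.4 and 24.0 in ConA+D8THC, closer together across groups than for any other of the 4. That of miR-802-5p was 1.54 and 1.36 in Vehicle, 2.39 and 2.03 in ConA+Vehicle, and 0.855 and 1.57 in ConA+D8THC. It was highest in ConA+Vehicle, and its ConA+D8THC libraries spanned both Vehicle values.

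Relative to miR-122-5p, miR-148a-3p had 63.1 and 56.1 counts per 1000 in Vehicle, 83.2 and 94.3 in ConA+Vehicle, and 103 and 139 in ConA+D8THC. The groups ranked Vehicle, ConA+Vehicle, ConA+D8THC without overlap, and the ratio in ConA+D8THC was 2.01-fold that in Vehicle. Scaling edgeR's fit to the miR-122-5p count, a test chosen after the values were seen, called none of the 4 ratios changed in any of the 3 comparisons, in which 26.7%, 72.6% and 34.8% of the 296 other miRNAs were called. The smallest unadjusted p, the only 1 of the 12 under 0.05, was 0.0429, that of miR-148a-3p in ConA+D8THC against Vehicle (log2 1.02, 95% interval 0.033 to 2.01, adjusted p = 0.100). The other intervals included 0 and were wide. In ConA+D8THC against ConA+Vehicle, for example, miR-192-5p differed from miR-122-5p by log2 -0.03 with an interval of -1.01 to 0.95, which allows a difference of that size either way.

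**Figure D3:**
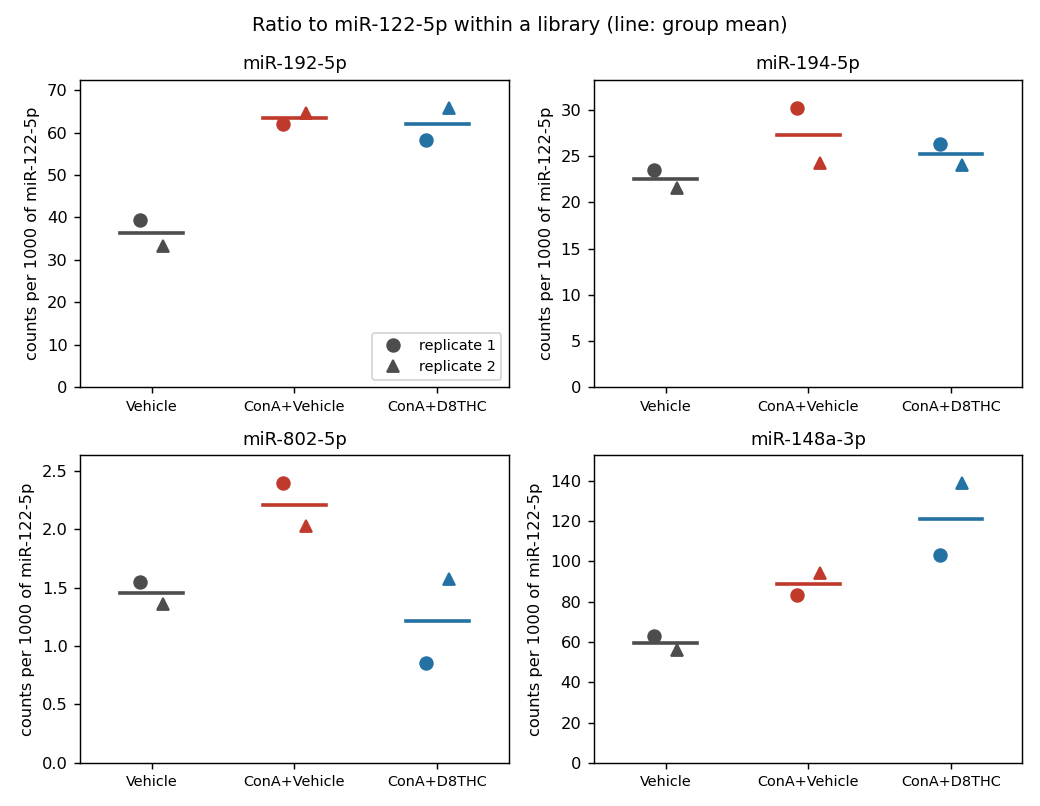
Counts of each of the 4 hepatocyte miRNAs per 1000 counts of miR-122-5p of the same library (vertical axes, linear from 0), by group (circles replicate 1, triangles replicate 2, lines group means). miR-192-5p is at 33.2 to 39.4 in Vehicle and 58.3 to 65.9 in both ConA groups, miR-194-5p stays within 21.6 to 30.3, and miR-148a-3p is lowest in Vehicle and highest in ConA+D8THC.

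miR-192-5p and miR-194-5p, neighbours on chromosome 19, did not keep a fixed ratio. There were 1.67 and 1.54 counts of miR-192-5p for each count of miR-194-5p in Vehicle, 2.05 and 2.67 in ConA+Vehicle, and 2.21 and 2.74 in ConA+D8THC. Both ConA groups lay above Vehicle without overlap (exact two-sided permutation p = 0.33 for each, n = 2 a group, the smallest possible). The ratio of miR-192-5p to miR-802-5p was 25.6 and 24.4 in Vehicle and 25.9 and 31.9 in ConA+Vehicle, but 68.2 and 42.0 in ConA+D8THC.

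The passenger arms, the strands usually discarded, had few counts. miR-192-3p had 84 counts over the 6 libraries beside 18917 of miR-192-5p, miR-802-3p 85 beside 623 of miR-802-5p, and miR-148a-5p 5 beside 31059 of miR-148a-3p. Of the 5 passenger arms only miR-192-3p and miR-802-3p passed the filter, and neither was called in any of the 3 comparisons in the main analysis. The means for Vehicle, ConA+Vehicle and ConA+D8THC were 13.3 ± 11.0, 37.7 ± 6.56 and 17.1 ± 2.07 CPM (SD, n = 2) for miR-192-3p. miR-802-3p was at 16.2 ± 9.28, 43.5 ± 22.7 and 14.0 ± 2.31 CPM in the same order. Both means were highest in ConA+Vehicle, as for the arms across the hairpin, and the unadjusted p was under 0.05 for both with ConA and for miR-802-3p with D8THC. With ConA each was called higher in 4 of 13 alternatives, the replicate block among them (adjusted p = 0.0266 for miR-192-3p and 0.0205 for miR-802-3p). Leaving out 1 library gave log2 values of 0.85 to 2.74 for miR-192-3p and 0.68 to 2.10 for miR-802-3p, each highest without Vehicle replicate 2. With D8THC in ConA hepatitis the block called miR-802-3p lower (0.0379). For 1 count of miR-802-3p there were 12.3 and 7.65 of miR-802-5p in Vehicle, 12 and 6.06 in ConA+Vehicle, and 2.83 and 5.73 in ConA+D8THC. All these ratios rest on few counts of the 3p arm: 7 and 26, 11 and 18, and 12 and 11 in the same order.

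The seed relatives of miR-148a-3p were not called higher with ConA. miR-148b-3p stood at 1704 and 1734 CPM in Vehicle, 1711 and 1875 in ConA+Vehicle, and 2001 and 1925 in ConA+D8THC. Its values varied little, and it was not called in any comparison (log2 0.06 ± 0.20 with ConA, adjusted p = 0.851, edgeR). miR-152-3p stood at 2586 and 2835 CPM in Vehicle, 1527 and 1624 in ConA+Vehicle, and 1526 and 2276 in ConA+D8THC. It fell 1.72-fold with ConA (log2 -0.78 ± 0.24, adjusted p = 0.0244), in a comparison that called 16.8% of tested miRNAs lower, which was no longer called with ConA+Vehicle replicate 1 (0.160) or 2 (0.111) left out. miR-152-3p was not called in the other comparisons. With the replicate block it was called lower in ConA+D8THC than in Vehicle (adjusted p = 0.0161).

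The make-up of this seed family differed between groups. miR-148a-3p gave 53.1% and 61.1% of the family's counts in Vehicle, 77.9% and 82.7% in ConA+Vehicle, and 54.6% and 65.3% in ConA+D8THC. The summed level of the 3 was 9142 and 11750 CPM, 14680 and 20270 CPM, and 7765 and 12120 CPM in the same order. Within a library there were 1.88 and 2.53 counts of miR-148a-3p for each of miR-152-3p in Vehicle, 7.50 and 10.3 in ConA+Vehicle, and 2.78 and 3.48 in ConA+D8THC. This was 4.04-fold higher in ConA+Vehicle than in Vehicle and 2.83-fold lower in ConA+D8THC than in ConA+Vehicle, with no overlap in either comparison (exact two-sided permutation p = 0.33 for each, the smallest possible). Since miR-148a-3p and miR-148b-3p differ at 2 bases, reads with errors could be split between them, and the treatment of such reads in counting is not stated.

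**Figure D4:**
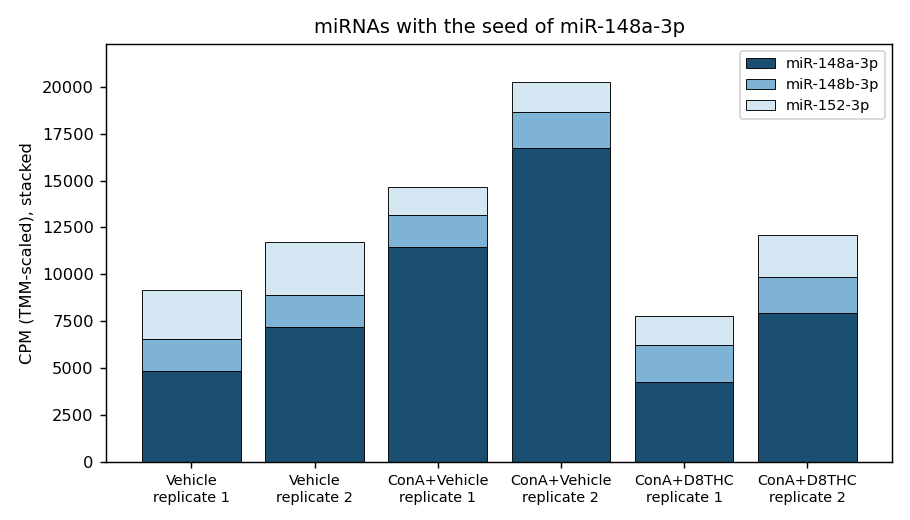
Level in CPM (vertical axis, linear from 0, stacked) of the 3 miRNAs with the seed of miR-148a-3p in each library. The dark miR-148a-3p segment makes up 77.9% and 82.7% of the counts in the ConA+Vehicle libraries and 53.1% to 65.3% in the others, while miR-148b-3p stays between 1704 and 2001 CPM.

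miR-215-5p, the seed relative of miR-192-5p that is best known from gut epithelium, was far rarer. It stood at 30.3 and 14.0 CPM in Vehicle, 242 and 19.8 in ConA+Vehicle, and 28.9 and 75.3 in ConA+D8THC. ConA+Vehicle replicate 1 held 97 counts and replicate 2 held 6, so the groups overlapped, and its log2 value with ConA of 2.64 ± 1.01 (adjusted p = 0.0806, edgeR) became -0.10 without replicate 1 and 3.49 (adjusted p = 0.00465) without replicate 2. miR-192-5p gave 97.2% to 99.8% of the counts of this seed in every library.

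Profiles over the 6 libraries were compared by the root mean square difference of log2(CPM + 1), each miRNA centred on its own mean, among 291 other tested miRNAs with a mean of at least 10 CPM. Nearest to miR-192-5p were miR-148a-3p (0.21), miR-802-3p (0.31) and miR-194-5p (0.31), against a median of 0.94. miR-194-5p lay nearest to miR-122-5p (0.15), then to miR-192-5p (0.31) and miR-31-5p (0.40). miR-802-5p lay nearest to miR-194-5p (0.43), miR-122-5p (0.46) and miR-192-5p (0.52). miR-148a-3p lay nearest to miR-192-5p (0.21), miR-802-3p (0.30) and miR-7a-1-3p (0.35), and miR-122-5p ranked only 11th for it. These likenesses describe 6 libraries that share depth and composition, and carry no test.

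Within each group the library with more miR-192-5p was also the one with more miR-194-5p, miR-802-5p, miR-148a-3p and miR-122-5p, in all 3 groups. It was replicate 2 each time. That library had the smaller share of counts from the miR-142a arms each time (2.53% beside 7.31% in Vehicle, 9.03% beside 10.3% in ConA+Vehicle, and 7.72% beside 11.2% in ConA+D8THC). It also had the smaller share of lymphocyte miRNAs (0.566% beside 0.814%, 0.874% beside 1.12%, and 0.642% beside 1.05%) and of erythroid miRNAs in all 3, and the larger endothelial share in all 3. Some single miRNAs went against their summed share. In ConA+Vehicle the lymphocyte share followed miR-150-5p (0.636% beside 0.898%). There miR-342-3p (0.195% beside 0.179%), miR-181a-5p and miR-181b-5p were slightly higher in replicate 2. In Vehicle, miR-126a-5p was lower in replicate 2 (6.45% beside 9.42%) and miR-126a-3p higher (27.7% beside 23.3%). In ConA+D8THC the erythroid miR-144-5p was slightly higher in replicate 2. No marker of these 4 lists was at 0 in any library. Other lists did not keep 1 direction. The share of the 4 myeloid miRNAs was larger in replicate 2 in Vehicle (0.365% beside 0.348%) and ConA+Vehicle (2.92% beside 2.76%). In ConA+D8THC it was smaller there (1.48% beside 2.18%). The shares of stellate cell and fibroblast miRNAs and of bile duct miRNAs were each larger in replicate 2 in 2 of 3 groups. Between group means the picture was mixed. From Vehicle to ConA+Vehicle the summed shares of the 4 hepatocyte miRNAs, the miR-142a arms and the lymphocyte miRNAs (0.690% and 0.996%) were all higher. ConA+D8THC had a smaller share of the 4 than Vehicle (1.08% beside 1.17%). Its summed shares of the miR-142a arms (9.45% beside 4.92%) and lymphocyte miRNAs (0.845% beside 0.690%) were larger. The libraries of these 2 groups overlapped in the share of the 4 and in the lymphocyte share. Of the 4 lymphocyte miRNAs, edgeR called only miR-342-3p higher, both in this comparison and with ConA. Their median log2 value was -0.01 here, with 2 negative, and 0.30 with ConA, with 1 negative. The part of these shares in the comparisons was not tested.

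**Figure D5:**
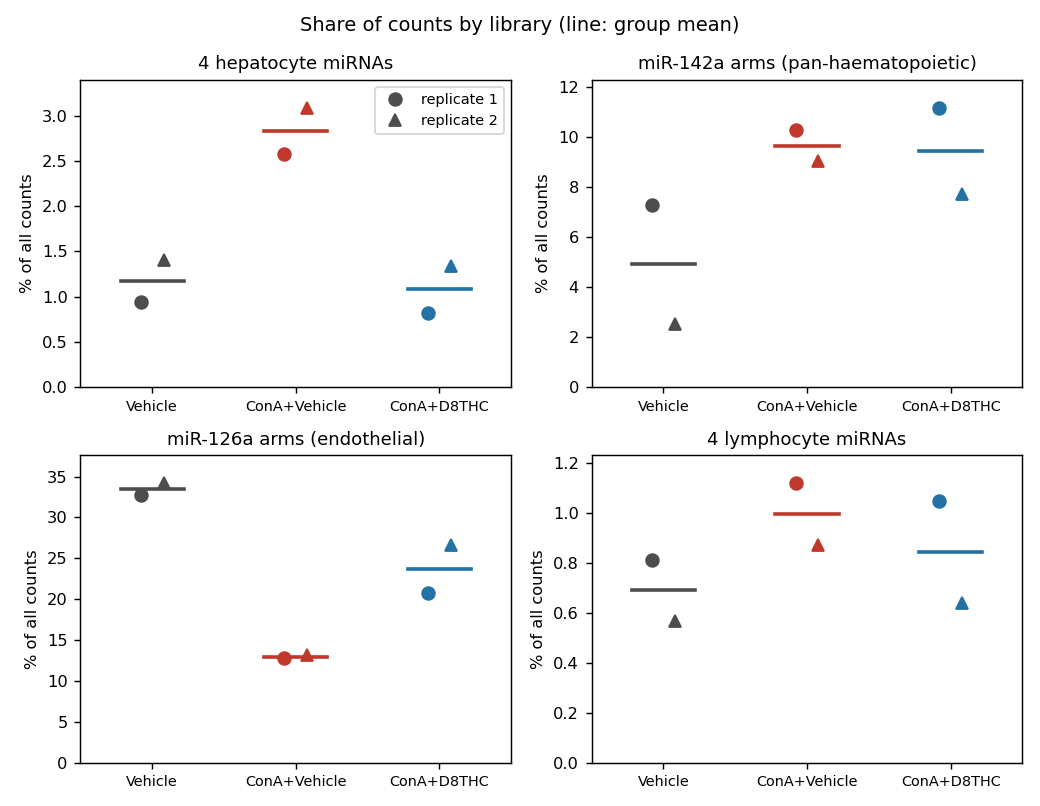
Percent of all counts (vertical axes, linear from 0) taken by the 4 hepatocyte miRNAs, the arms of miR-142a, the arms of miR-126a and 4 lymphocyte miRNAs in each library (circles replicate 1, triangles replicate 2, lines group means). Within each group the library with the larger hepatocyte share has the smaller summed miR-142a and lymphocyte shares and the larger summed miR-126a share. Single miRNAs of these sums did not all follow. The myeloid share, not drawn, was larger in that library in 2 of the 3 groups.

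A list of 8 miRNAs with known roles in liver metabolism that many cell types express was set beside the 4. All 8 were tested, and the list took 2.24% to 2.60% of counts in every library. With ConA 0 of the 8 were called in either direction by edgeR (median log2 0.0081), 0 had an unadjusted p under 0.05, and DESeq2 called 0. With D8THC in ConA hepatitis edgeR called 0 (median log2 0.15) and DESeq2 0, with 2 at an unadjusted p under 0.05. Against Vehicle, ConA+D8THC had miR-33-5p, a regulator of cholesterol export, called higher, like 18.5% of tested miRNAs (adjusted p = 0.0419), and miR-22-3p, made by most cell types, lower (adjusted p = 0.0181), while DESeq2 called 1 of the 8. miR-33-5p rests on 8 and 14 counts in Vehicle and 52 and 12 in ConA+D8THC. Of 5 miRNAs of bile duct epithelium, the other epithelial type of the liver, 0 were called by edgeR in any of the 3 comparisons, with medians of -0.078, -0.19 and -0.44. DESeq2 also called 0, and 1, 0 and 1 had an unadjusted p under 0.05 in edgeR.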

How the data were processed

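Small RNA libraries (QIAseq kit, Illumina sequencing) of liver immune cells were aligned and counted by the authors in QIAGEN's GeneGlobe portal, per the labels and the series' design text, with build mm10 per the submitters' processing notes. The deposited values are raw counts per mature miRNA without normalization. Not given in the sources used here are the aligner, the annotation and any collapsing by molecular identifier.

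The analysis used edgeR 4.0.16 (R 4.3.3): filterByExpr by group kept 297 miRNAs, and TMM factors, a group-means design with 3 residual degrees of freedom that all 6 libraries entered, robust glmQLFit and glmQLFTest followed, with Benjamini-Hochberg adjustment over 297 miRNAs and calls at an adjusted p under 0.05. A standard error is the size of the log2 fold change divided by the root of its F statistic. CPM use TMM-scaled totals, and 3 counts were worth 2.63 to 9.92 CPM. Intervals are exact binomial at 95% and cover counting error only. DESeq2 1.42.0 was an alternative; plots used matplotlib 3.10.9. Positions are from RefSeq GRCm38.p6 and GENCODE M21. The fit was tested on 10 simulated sets of 806 miRNAs, of which 200 were changed and all had the same dispersion. Only changed miRNAs that passed the filter on low counts in a simulated set were scored. Over the 3 comparisons the fit called 37% to 44.1% of their true 2-fold changes and 85.3% to 92.6% of their 4-fold changes. Changed miRNAs that the filter removed are not in these rates. A change of about 2-fold was thus often missed in the simulation.

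The 4 miRNAs, the lists and the rule for naming miRNAs (the 4, their passenger arms and seed relatives, miR-122, fixed marker lists, and the 3 nearest profiles each) were chosen with earlier results of these data known. The fit scaled to miR-122-5p was chosen after the values were seen.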

Additional observations from a re-analysis of the deposited data

How the results depend on the processing

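Of 13 alternatives run for each comparison (DESeq2, upper-quartile factors, library totals, no filter, replicate block, miR-122 or miR-126a left out, and each library left out), the number of the 4 called higher with ConA, 4 in the main analysis, was 2 with miR-126a left out and 1 to 4 with 1 library left out. The number called lower with D8THC in ConA hepatitis, 3, ranged from 2 to 4 with 1 library left out. Against Vehicle the 2 called lower became 1 with library totals and 0 to 2 with 1 library left out. Over all miRNAs, leaving out 1 library gave 63 to 125 calls with ConA (109 in the main analysis), 6 to 28 with D8THC in ConA hepatitis (11) and 60 to 107 against Vehicle (97). The count of 11 became 44 with the replicate block, of which 12 were higher and 32 lower. It was 19 when no filter was used, and 17 each with DESeq2 and with upper-quartile factors. Without both arms of miR-126a in the total, the 4 took 1.76% of counts in Vehicle and 3.26% in ConA+Vehicle, and without miR-122 3.36% in ConA+Vehicle.

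Signs turned only for values that were not called. With ConA, miR-148b-3p was at log2 -0.049 with DESeq2, -0.0066 with no filter, -0.087 with miR-126a left out and -0.0066 to 0.13 with 1 library left out, and miR-215-5p was at -0.10 to 3.49 with 1 library left out. With D8THC in ConA hepatitis, miR-215-5p was at -2.24 to 1.36 with 1 library left out, the highest without ConA+Vehicle replicate 1. In ConA+D8THC against Vehicle, miR-192-5p was at -0.47 to 0.045 with 1 library left out, above 0 without Vehicle replicate 2 (0.021) or ConA+D8THC replicate 1. There miR-148a-3p was at -0.011 with DESeq2, -0.031 with no filter, -0.081 with upper-quartile factors, -0.023 with the replicate block, -0.093 with miR-126a left out, and at -0.31 to 0.40 with 1 library left out, below 0 without Vehicle replicate 1 (-0.24) or ConA+D8THC replicate 2. Leaving out 1 library put miR-802-3p at -0.71 to 0.51, the highest without Vehicle replicate 2, and miR-192-3p at -0.28 to 1.61, the lowest without Vehicle replicate 1. The cause of these changes was not tested.

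Scaling moved the median log2 value of all miRNAs by more than 0.1 in places: by -0.138 with miR-126a left out and -0.101 with DESeq2 for ConA+Vehicle against Vehicle, by -0.109 with upper-quartile factors for ConA+D8THC against ConA+Vehicle, and by 0.108 with library totals for ConA+D8THC against Vehicle. The replicate numbers of the labels name no shared litter, batch or day, and deviations of same-numbered libraries correlated across miRNAs at 0.191, 0.0786 and 0.219 in the 3 comparisons. For each of the 4, however, replicate 2 was the higher library in every group. With the block, the calls of the 4 were unchanged except that of miR-148a-3p with D8THC, given above. With 34 to 199 counts a library, miR-802-5p is the least precise of the 4.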
